A study of Rattus norvegicus with 6 samples.

Results

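The ABC transporters are the family of ATP-binding cassette genes, named Abca to Abcg in the rat. The family was taken as every gene whose symbol is Abc, a letter from a to g and a number, which gave 49 of the 17525 genes in the table. Their messenger RNA was measured in primary cells cultured from the ovary and labelled as granulosa cells, the somatic cells of the follicle. Per the series' design text, the cells came from SD rats aged 21 days that received PMSG (a gonadotropin that drives follicle growth) at 60 IU, and ovaries were collected 48 h later. The dispersed cells were grown with fetal bovine serum, and the submitters identified them by staining for FSHR.

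All values come from the 3 libraries titled ATR, called ATR 1, ATR 2 and ATR 3. The series' title concerns long atrazine exposure, but the labels used here do not spell out ATR and give neither a dose nor a duration. Another 3 libraries, titled Control, were not analysed here, and no value is an effect of an exposure. Levels are given in TPM, which scales reads for transcript length and library size, and triplets of values stand in the order ATR 1, ATR 2, ATR 3. A value after ± is the SD of those 3 libraries (n = 3). Nothing in the labels says if each library had its own animal or culture, and the spread and its p-values may therefore be technical.

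ABC proteins bind and hydrolyse ATP in paired nucleotide-binding domains. Most members couple this to moving a substrate across a membrane: sterols and phospholipids, drugs and their conjugates, peptides, fatty acids or metal-bound cofactors. Subfamilies E and F lack the membrane part and act on ribosomes. Granulosa cells handle cholesterol for steroid synthesis, and P-glycoprotein, the drug pump of subfamily B, is also found in steroid-making tissues.

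The libraries held 18677212 to 19170552 reads assigned to genes, so 3 reads, the limit that a count of 0 allows, correspond to 0.156 to 0.161 CPM (library-scaled reads). Of 14 granulosa markers, 12 reached 1 TPM and their TPM summed to 3318, 3078 and 2953. Most of each sum came from the connexin gene Gja1, at 2036, 1863 and 1821 TPM. The FSH receptor gene Fshr had a mean of 5.80 TPM, while Amh and the aromatase gene Cyp19a1 had means of 0.0700 and 0.0567 TPM. Of 12 surface epithelium markers 9 reached 1 TPM, and their sum was 2405, 2284 and 2346 TPM. Smooth muscle and pericyte markers summed higher, to 17708, 16537 and 16367 TPM, nearly all from Tagln and Acta2. In bulk RNA, fewer cells of a type and less RNA per cell cannot be told apart.

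Of the 49 members, 35 had a mean of at least 1 TPM (71.4%), the same share as over all genes in the table (71.4%). At 10 TPM or more there were 22 members (44.9%), against 50.2% of all genes. The median member level was 6.20 TPM and the median gene level 10.1 TPM. Members summed to 969, 910 and 919 TPM, which is 0.0910% to 0.0969% of a library. The 3 most abundant members, Abcf1, Abcb1b and Abce1, held 31.6% of that sum.

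**Figure D1:**
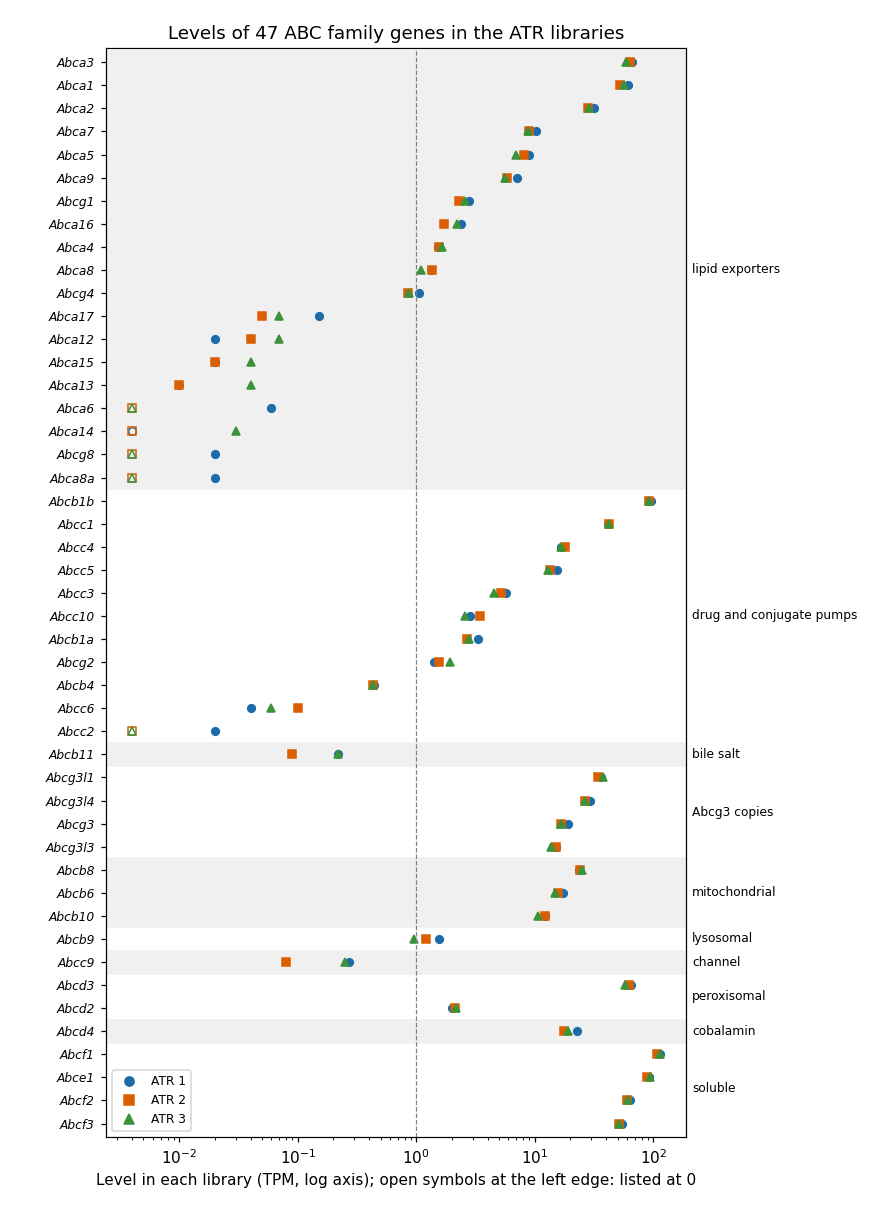
Level of 47 ABC family genes in TPM on a log axis (horizontal), with 1 symbol per ATR library and genes grouped by role; open symbols at the left edge are values listed at 0, and the dashed line marks 1 TPM. The 33 genes plotted with a mean of 1 TPM or more span Abca8 and Abcb9 near 1 TPM to Abcf1 at 111 TPM.

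The members fell into 8 genes above 50 TPM, 14 at 10 to 50 TPM, 13 at 1 to 10 TPM and 14 below 1 TPM. Abcf1 stood clear of all other members. Abcb1b and Abce1 followed with overlapping ranges. Abca3, Abcd3, Abcf2, Abca1 and Abcf3 formed a further group at 52.4 to 62.9 TPM in which each overlapped its neighbour in the order, and Abcc1 at 42.0 TPM lay below all of these with no overlap.

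The soluble members, which carry no membrane part, held 33.9% of the family's TPM. Abcf1, which acts with the initiation factor eIF2, stood at 113, 106 and 114 TPM (111 ± 4.07). Abce1, which splits ribosomes for recycling, stood at 91.9, 87.9 and 93.0 TPM (90.9 ± 2.69). Both were lowest in ATR 2, and Abcf1 exceeded Abce1 by 1.22 ± 0.00998 times within a library. Abcf2 stood at 63.3, 59.5 and 61.4 TPM and Abcf3 at 54.7, 51.4 and 51.0 TPM. The ranges of these last genes do not overlap, and Abcf2 was the higher in every library. The Abce1 gene overlaps the gene Anapc10 on the chromosome, and no strand-marking step is described.

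All 13 listed partners of ribosome recycling and translation reached 1 TPM, and their median was 98.4 TPM. The leading partners were Eif2s2 (355.9 ± 5.87 TPM) and Eif2s1 (176 ± 5.79 TPM), subunits of eIF2, and the release factors Gspt1 (240.1 ± 12.3 TPM) and Etf1 (192 ± 4.32 TPM). Abce1 and Abcf1 therefore lay below each of these in TPM. A spread between the libraries beyond counting noise, by the chi-square test described further on, was found for 3 of the 13, near the 23.2% of all genes tested that had such a spread. These were Gspt1 and Zfp598 (38.1 ± 3.17 TPM), both highest in ATR 1, and Gcn1 (51.7 ± 1.40 TPM).

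Among drug and conjugate pumps, 8 of 11 members reached 1 TPM, and 1 gene dominated. Abcb1b, which encodes P-glycoprotein together with its close copy Abcb1a, stood at 94.98, 92.3 and 91.1 TPM (92.8 ± 2.00), rank 2035 among all genes. It passed no test of spread between the libraries (chi-square, adjusted p = 0.877). Abcb1a, the other rodent copy, stood at 3.31, 2.68 and 2.77 TPM (2.92 ± 0.341). Abcb4, the phosphatidylcholine flippase of bile and the third gene of the group, stood at 0.440, 0.430 and 0.430 TPM. Every library had the same order, and Abcb1b exceeded Abcb1a by 28.7, 34.4 and 32.9 times and Abcb4 by 216, 215 and 212 times.

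The counts of these 3 genes are not whole numbers, as for 24.2% of all genes. Whether reads were divided between the similar genes was not tested, and the low levels of Abcb1a and Abcb4 are uncertain for that reason. Abcb1a also overlaps the gene Rundc3b, and no strand-marking step is described. In reads with no length scaling the Abcb1b to Abcb1a ratio was 25.6. In the RefSeq gene order of assembly GRCr8 the 3 genes lie next to each other, as Abcb4, Abcb1b and Abcb1a.

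The stretches before the annotated starts of these neighbours are shown because their levels differ so widely. Each is the 250 bases before the start from RefSeq (GRCr8, minus strand), written 5′ to 3′, with matches on either strand in capitals. The letters marked were CCAAT as bound by NF-Y, GGGCGG as bound by SP1, the TATA box TATAAA, and the E-box core CACGTG. The motifs GCGTG and TGACNNNGC, counted further on, are not marked, and Abcb4 had 2 GCGTG matches.
Abcb1b (chr4:26280030-26280279): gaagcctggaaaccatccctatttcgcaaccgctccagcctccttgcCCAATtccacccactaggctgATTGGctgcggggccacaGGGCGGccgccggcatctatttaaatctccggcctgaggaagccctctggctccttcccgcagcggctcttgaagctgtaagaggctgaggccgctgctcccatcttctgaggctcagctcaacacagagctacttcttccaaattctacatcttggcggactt
Abcb1a (chr4:26397649-26397898): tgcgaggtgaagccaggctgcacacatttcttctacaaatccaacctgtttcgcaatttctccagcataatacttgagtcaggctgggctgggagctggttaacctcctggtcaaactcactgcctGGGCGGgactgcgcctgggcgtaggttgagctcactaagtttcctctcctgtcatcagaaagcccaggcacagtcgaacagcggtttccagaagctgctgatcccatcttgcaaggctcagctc
Abcb4 (chr4:26164146-26164395): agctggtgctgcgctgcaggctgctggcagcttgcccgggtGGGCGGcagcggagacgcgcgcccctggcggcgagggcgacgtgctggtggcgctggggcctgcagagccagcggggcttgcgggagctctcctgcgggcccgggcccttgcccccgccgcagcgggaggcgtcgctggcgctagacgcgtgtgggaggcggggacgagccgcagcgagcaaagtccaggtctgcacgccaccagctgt

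Abcb1b had 2 CCAAT matches and 1 GGGCGG match in this window, Abcb1a and Abcb4 had 1 GGGCGG match each and no CCAAT. A global alignment gave 53.4% identical columns between the Abcb1b and Abcb1a stretches, against 51.8% between Abcb1b and Abca1, a member of another subfamily. These alignments ran end to end, with gaps in 88 of 294 and 68 of 284 columns. They therefore cannot tell whether shorter, shifted parts of the stretches match. The GC content was 58.0% for Abcb1b, 54.0% for Abcb1a and 76.0% for Abcb4. A match is a description of the letters and not a site, and absence says only that these letters are not in this window.

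**Figure D2:**
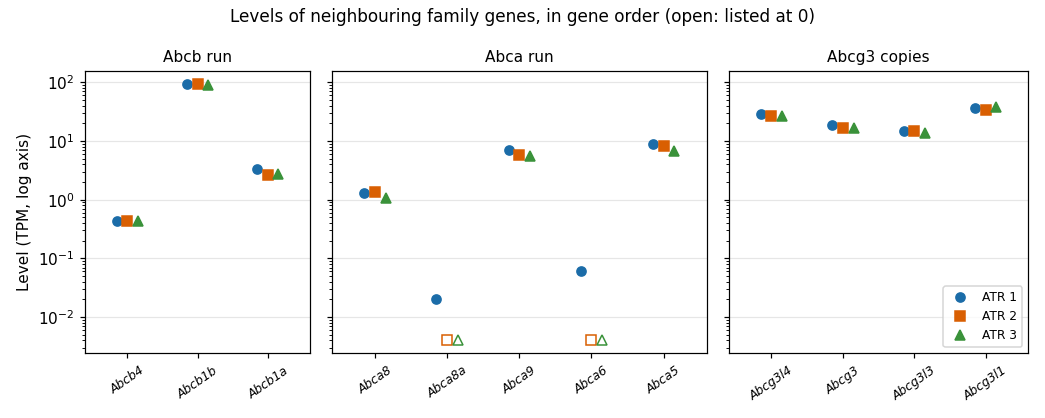
Level in TPM on a log axis (vertical) of neighbouring family genes in RefSeq gene order, 1 symbol per ATR library; open symbols are values listed at 0. In the left panel Abcb1b lies near 93 TPM between Abcb4 and Abcb1a at 0.433 and 2.92 TPM. In the middle panel Abca genes at 1.26 to 7.96 TPM alternate with nearly silent ones. The right panel shows the 4 Abcg3 copies with values (not all directly adjacent) between 14.6 and 35.9 TPM.

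The other efflux pump of wide drug specificity, Abcg2 (breast cancer resistance protein), stood at only 1.41, 1.57 and 1.94 TPM (1.64 ± 0.272), from 27, 31 and 39 reads. Abcb1b exceeded it by 67.4, 58.8 and 46.95 times.

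The Abcc pumps, which export glutathione, glucuronide and nucleotide conjugates, were led by Abcc1 (MRP1, the carrier of glutathione conjugates and leukotriene C4). Abcc1 stood at 41.6, 42.4 and 42.1 TPM (42.0 ± 0.403). Its coefficient of variation in TPM, 0.959%, was the lowest among the members at 1 TPM or more. In CPM on the log2 scale its SD was 0.0329, above the 0.0120 of Abcb1b. Abcc4, which exports cyclic AMP and prostaglandins, stood at 16.6, 17.9 and 16.7 TPM. Abcc5, a carrier of cyclic nucleotides, stood at 15.5, 13.3 and 12.9 TPM and was highest in ATR 1. Abcc3, a glucuronide carrier, stood at 5.71, 5.23 and 4.50 TPM, and Abcc10 at 2.86, 3.42 and 2.56 TPM. Abcc1 exceeded Abcc4 by 2.46 ± 0.0841 times, and Abcc4 exceeded Abcc5 by 1.24 ± 0.144 times. Neither pair overlapped between libraries.

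The liver-type members had few reads. Abcc2, the bile canalicular conjugate pump, had 1, 0 and 0 reads, Abcc6 2, 5 and 3 reads, and the bile salt pump Abcb11 10, 4 and 10 reads. Abcb11 was above Abcc2 in every library, while Abcc2 lay under the limit that a count of 0 allows.

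The glutathione genes that supply substrates to the Abcc pumps had a median of 65.6 TPM, and 13 of 14 reached 1 TPM. Gstp1 led at 1774, 2095 and 1861 TPM, followed by Gsta4 (257 ± 13.2 TPM), Mgst1 (133 ± 12.95 TPM) and Gstm2 (128 ± 0.725 TPM). Spread beyond counting noise was found in 6 of 13 tested, against 23.2% of all genes tested. None of the 6 was highest in ATR 1: Gstp1, Mgst1, Gss, Gsta1, Ggt5 and Slc7a11. Over the whole table, 1100 of the 3087 genes with such a spread were highest there. Gsta1 was listed at 13.9, 14.3 and 0 TPM, from 93.6, 97.1 and 0 estimated reads. Whether its reads were divided with similar genes was not tested, and its call is uncertain for that reason. Slc7a11 stood at 2.86, 2.95 and 3.12 TPM from 162, 209 and 219 estimated reads. The length behind its TPM thus differed between libraries, and its call rests on the reads. Of the listed drug carriers of other families, 2 of 12 found reached 1 TPM. These were Slco3a1 at 368, 333 and 326 TPM (spread beyond counting noise) and the carnitine carrier Slc22a5 at 8.70, 8.60 and 7.45 TPM. Slc47a1 and Slco1b2 came next at 0.460 and 0.283 TPM.

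The 19 members of subfamily A and of the sterol carriers of subfamily G were grouped as lipid exporters, and 10 of them reached 1 TPM. They held 19.4% of the family's TPM, about as much as the drug pumps (19.2%). Abca3, known for loading phospholipid into the lamellar bodies of the lung, led at 65.8, 63.7 and 59.2 TPM (62.9 ± 3.36). Abca1, which exports cholesterol and phospholipid to apolipoprotein A-I, stood at 61.7, 52.1 and 57.1 TPM (56.9 ± 4.77). Abca1 was lowest in ATR 2, and the ranges of both genes overlap. Abca2, an endolysosomal lipid carrier, stood at 31.5, 28.1 and 28.5 TPM (29.4 ± 1.86).

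The stretch before the start of Abca1 is given because it alone among the 6 printed here holds a TATAAA and a CACGTG match, under the same marking, on the minus strand of GRCr8.
Abca1 (chr5:72596474-72596723): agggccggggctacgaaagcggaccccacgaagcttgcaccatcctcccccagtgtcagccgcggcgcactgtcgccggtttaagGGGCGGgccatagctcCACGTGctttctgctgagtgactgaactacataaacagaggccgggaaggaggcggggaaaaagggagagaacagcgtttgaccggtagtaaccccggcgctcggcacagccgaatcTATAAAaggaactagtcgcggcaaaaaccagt
The TATAAA match begins at position -32, where -1 is the base before the annotated start, the CACGTG match at -149 and the GGGCGG match at -165.

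The second sterol exporter, Abcg1, which passes cholesterol to high-density lipoprotein, was far lower than Abca1, at 2.79, 2.30 and 2.59 TPM (2.56 ± 0.246). Abca1 exceeded it by 22.1, 22.7 and 22.0 times. With no length scaling the ratio of reads was 55.1. Its close relative Abcg4 stood at 1.06, 0.860 and 0.870 TPM. Abcg8, a subunit of the intestinal and biliary sterol exporter, had 1, 0 and 0 reads.

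Among the other Abca genes, Abca7, the nearest relative of Abca1, stood at 10.3, 8.92 and 8.84 TPM. Abca5 stood at 8.86, 8.13 and 6.89 TPM from 557, 487 and 472 reads. Both were highest in ATR 1. Abca5 was the only member above 5 TPM whose ratio of reads to TPM varied by over 5% between libraries (coefficient of variation 5.66%), so the length behind its TPM differed between libraries. Abca9 stood at 7.08, 5.87 and 5.65 TPM, Abca4 (the retinoid flippase of photoreceptors) at 1.52, 1.55 and 1.64 TPM, and Abca8 at 1.32, 1.36 and 1.09 TPM. Abca16 stood at 2.38, 1.71 and 2.21 TPM from 108, 77.9 and 103 estimated reads.

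Neighbouring Abca genes differed strongly. In the run Abca8, Abca8a, Abca9, Abca6, Abca5 the mean levels were 1.26, 0.00667, 6.20, 0.0200 and 7.96 TPM, so that both nearly silent genes lay between expressed ones. Abca8a had a single estimated read and Abca6 had 3 reads, all in ATR 1. In the run Abca14, Abca15, Abca16 the first gene had a single read in ATR 3 and Abca15 had 1, 1 and 2 reads. Abca17, beside Abca3, had 7.04, 3.02 and 4.03 estimated reads against 3744, 3643 and 3463 for Abca3. Abca12, the ceramide carrier of skin, had 2, 3 and 6 reads and Abca13 2, 1 and 6 reads.

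Of 16 partners of cholesterol efflux 15 reached 1 TPM, and their median was 53.7 TPM. Npc2, which hands lysosomal cholesterol on, stood at 735 ± 15.2 TPM, the apolipoprotein Apoe at 432 ± 12.9, the sterol esterifying enzyme Soat1 at 338 ± 0.697 and the lysosomal lipase Lipa at 234 ± 12.1 TPM. Spread beyond counting noise was found for Apoe, Lipa and Lrp1 (233 ± 1.37 TPM), 3 of 13 tested, and none was highest in ATR 1. Over all genes tested, 23.2% (3087 genes) had such a spread. Of these genes 1100 were highest in ATR 1, which is 8.27% of all genes tested. These values are the background for this list and the others. Of 15 measured regulators of ABC genes, 13 reached 1 TPM. Nfe2l2 (NRF2) led at 262, 250.2 and 276 TPM, followed by Ahr at 50.96, 55.9 and 53.4, the LXR-beta gene Nr1h2 at 46.6, 49.4 and 40.1 and Srebf2 at 35.6, 33.3 and 33.6 TPM. Nr1h2 exceeded Nr1h3, the LXR-alpha gene, by 21.1, 14.5 and 18.6 times. The xenobiotic receptors Nr1i2 (PXR) and Nr1i3 (CAR) were the 2 regulators below 1 TPM. Nfe2l2, Ahr, Nr1h2 and Srebf1 (24.3 ± 2.21 TPM) had spread beyond counting noise, 4 of 13 tested, and none of them was highest in ATR 1.

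The 4 Abcg3 genes with values, rodent relatives of Abcg2, held 10.2% of the family's TPM. RefSeq lists a further copy, Abcg3l2, next to Abcg3l4, and it has no value here. Abcg3l1 stood at 36.1, 34.1 and 37.4 TPM, Abcg3l4 at 29.4, 26.6 and 26.4, Abcg3 at 18.95, 16.6 and 16.7 and Abcg3l3 at 15.1, 15.0 and 13.7 TPM. Each gene was above the next in every library. None of the 4 has whole counts. Whether reads were divided among the copies was not tested, and the single levels are uncertain. Their sum was 99.5, 92.3 and 94.2 TPM. Abcg3l3 also overlaps another gene, Zfp658l1.

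The stretches before the starts of Abcg3l1 and Abcg3l4 are shown because they are nearly identical, from the minus strand of GRCr8 with the GGGCGG match, which lies on the other strand, in capitals.
Abcg3l1 (chr14:5481877-5482126): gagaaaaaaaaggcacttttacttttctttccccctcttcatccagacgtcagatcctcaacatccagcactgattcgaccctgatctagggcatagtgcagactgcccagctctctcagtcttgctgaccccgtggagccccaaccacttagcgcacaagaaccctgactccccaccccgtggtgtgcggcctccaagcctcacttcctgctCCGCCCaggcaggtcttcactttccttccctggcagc
Abcg3l4 (chr14:4890062-4890311): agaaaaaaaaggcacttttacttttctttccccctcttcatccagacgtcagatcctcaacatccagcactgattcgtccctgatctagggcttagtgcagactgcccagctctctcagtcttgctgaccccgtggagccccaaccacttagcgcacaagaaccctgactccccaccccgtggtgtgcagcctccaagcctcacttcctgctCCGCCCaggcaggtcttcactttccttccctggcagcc
These were identical in 98.0% of aligned columns. Abcg3l3 matched Abcg3l1 in 68.3% of columns. Abcg3 matched it in 48.1%, below the 52.7% between Abcg3l1 and Abce1, a member of another subfamily. The limit of end-to-end alignment given above holds for these gapped alignments too.

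Over the 40 members with a promoter entry in RefSeq, the number of CG dinucleotides in the 250 bases before the start had a median of 19.5 in the 18 genes at 10 TPM or more. The median was 9 both in the 11 genes at 1 to 10 TPM and in the 11 below 1 TPM. Over all genes of the table with an entry the medians were 17, 14 and 5 in the same order. Spearman's rho between this number and mean TPM was 0.490 across these genes, against 0.406 across the 13242 genes of the table with an entry. Genes are not independent replicates and no test was made. Abcb1b had 11 CG dinucleotides and the Abcg3 copies 3 to 8, all below the median of their level class, and Abcb4 had 29, the highest number among members below 1 TPM.

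GGGCGG was found in 24 of the 40 (60.0%), against 52.8% of the table's genes with an entry and 32.4% of all 27457 promoters of that length. CCAAT was found in 12 members, against 35.1% of the table's genes and 34.3% of all promoters. TATAAA was found in 4 (10.0%, against 7.97% and 13.1%) and CACGTG in 3 (7.5%, against 7.57% and 5.79%). GCGTG, the core letters bound by the AhR complex, was found in 17 (42.5%, against 40.4% and 27.2%). TGACNNNGC, the core letters of the NRF2 element, was found in 1 (2.5%, against 11.9% and 10.2%). Both strands were searched, and matches of different motifs may overlap.

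**Figure D3:**
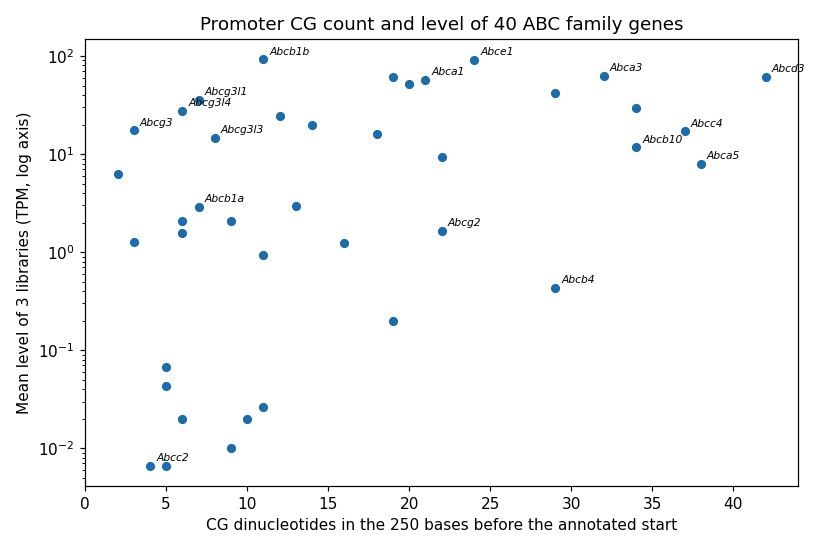
Mean level over the 3 ATR libraries in TPM on a log axis (vertical) against the number of CG dinucleotides in the 250 bases before the annotated start (horizontal), 1 point per ABC family gene with a RefSeq promoter entry (40 genes). Genes with more than 30 CG dinucleotides all lie above 5 TPM, while genes with fewer than 15 range from 0.00667 TPM to Abcb1b at 92.8 TPM.

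All 4 mitochondrial members reached 10 TPM. Abcb8, a subunit of a mitochondrial potassium channel, stood at 23.7, 23.9 and 24.95 TPM (24.2 ± 0.679). Abcb6, linked to porphyrin transport, stood at 17.2, 15.7 and 14.9 TPM (15.9 ± 1.13). Abcb10, needed for haem synthesis, stood at 12.3, 12.2 and 10.7 TPM. Abcb8 exceeded Abcb6 by 1.52 ± 0.146 times, and no range of these genes overlaps another. All 15 listed partners in iron-sulphur and haem synthesis reached 1 TPM, around a median of 42.2 TPM. The leaders were Hspa9 (250.2 ± 6.50 TPM), Tmem14c (193 ± 7.35 TPM), Iscu (188 ± 7.59 TPM) and Slc25a39 (127 ± 7.21 TPM). Hspa9, Slc25a39, Alas1 (107 ± 6.31 TPM) and Cpox (64.8 ± 6.17 TPM) had spread beyond counting noise, and none was highest in ATR 1.

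The peroxisomal members differed in level. Abcd3 (PMP70), which imports branched-chain and bile acid precursors, stood at 64.3, 62.5 and 57.8 TPM (61.6 ± 3.37). Abcd2, a fatty acid importer, stood at 2.01, 2.11 and 2.18 TPM. Abcd3 exceeded Abcd2 by 29.4 ± 2.75 times, and their ranges lay far apart in every library. Of 11 peroxisomal partners, 10 reached 1 TPM, led by Hsd17b4 (84.8 ± 1.81 TPM), Scp2 (78.7 ± 1.55 TPM) and Pex19 (62.7 ± 3.98 TPM). None of the 11 had spread beyond counting noise by the adjusted chi-square test.

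Abcd4, which works with Lmbrd1 to release cobalamin from lysosomes, stood at 22.7, 17.5 and 19.2 TPM (19.8 ± 2.64) and was highest in ATR 1. Lmbrd1 itself stood at 20.3, 21.6 and 19.99 TPM, near Abcd4. All 9 cobalamin partners reached 1 TPM, led by Mmadhc (95.3 ± 1.64 TPM), Tcn2 (92.6 ± 5.12 TPM) and Cd320 (48.3 ± 1.62 TPM), and none was called by the same test.

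Abcb9, a lysosomal peptide carrier, stood at 1.56, 1.21 and 0.96 TPM from 46, 36 and 29 reads. Its coefficient of variation of 24.2% was the highest among members at 1 TPM or more. Its relatives Tap1 and Tap2, the antigen peptide transporter, are ABC genes by function but fall outside the naming rule. Tap1 stood at 39.6, 35.95 and 32.5 TPM with spread beyond counting noise (adjusted p = 0.0118), and Tap2 at 16.6, 16.8 and 14.5 TPM. Cftr, also outside the rule, stood at 1.07 ± 0.0265 TPM. All 9 peptide loading partners reached 1 TPM, led by Calr (2217 ± 36.2 TPM), Pdia3 (1629 ± 69.0 TPM), Canx (633 ± 43.4 TPM) and B2m (532 ± 8.20 TPM). Calr, Pdia3, Canx, Tapbp (68.4 ± 5.93 TPM) and Erap1 (65.6 ± 3.77 TPM) had spread beyond counting noise, the last pair being highest in ATR 1.

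Abcc9, the sulphonylurea receptor that regulates potassium channels of smooth muscle, had 16, 5 and 15.1 estimated reads. Its pore partners Kcnj8 and Kcnj11 stood at 0.217 and 0.0267 TPM on average. Smooth muscle and pericyte markers, by contrast, reached 1 TPM in 9 of 9 cases found.

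Differences between the libraries were tested over the whole table. A chi-square test compared the 3 counts of each gene with library sizes scaled by the TMM method, and took genes whose counts added up to 30 or more. P-values were adjusted by the Benjamini-Hochberg method over these genes, and a gene was called below 0.05. What is compared is libraries of 1 group, not conditions, and a duplicated read counts as an independent one. Of 38 members tested, 5 were called (13.2%), against 23.2% of the 13309 genes tested. Among the 22 members with at least 1000 reads the share was 22.7%, against 29.7% of such genes. Both shares of members rest on the same 5 called genes, so a few calls would move them. They were not tested against the background. The median SD of log2(CPM + 0.5), where CPM takes the scaled library sizes, was 0.0813 for the members tested and 0.0858 for all genes tested.

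The 5 called members were Abca1 (adjusted p = 3.49e-09), Abcc5, Abca3, Abcd4 and Abca2, and each had its highest CPM in ATR 1. Thus 13.2% of the members tested were called and highest in ATR 1, against 8.27% of all genes tested. Of the 3087 genes called over the whole table, 1100 were highest in ATR 1. Abca1 had 5188, 4455 and 4927 reads, a ratio of ATR 1 to ATR 2 of 1.15 (exact 95% interval 1.10 to 1.19, for counting error only). Abcd4 had an ATR 1 to ATR 2 ratio of 1.27 (1.11 to 1.46) and an adjusted p of 0.0134. Abcc5 had ratios of 1.18 (1.06 to 1.30) and, against ATR 3, 1.21 (1.09 to 1.34), with an adjusted p of 0.0016. For Abca2 the ratio of ATR 1 to ATR 2 was 1.096 (1.03 to 1.16; adjusted p = 0.0254), and for Abca3 that of ATR 1 to ATR 3 was 1.08 (1.03 to 1.13; adjusted p = 0.0123). Of these ratios the highest was 1.27, for Abcd4.

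Single libraries carried these calls. Without ATR 1, Abca2, Abcc5 and Abcd4 lost theirs, at adjusted p of 0.829, 0.822 and 0.428. Without ATR 2, Abca1, Abca2 and Abcd4 lost theirs, at 0.0662, 0.0713 and 0.178, and without ATR 3 Abca3 did, at 0.816. Without ATR 1 the test called 3 members (Abca1, Abca3 and Abcf1), without ATR 2 it called 2, and without ATR 3 it called 4. Counts of Abca3 and Abcd4 are not whole, so these 2 were not tested where genes with whole counts alone were kept.

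Across the 38 tested members, called or not, 22 were highest in ATR 1 (57.9%), against 34.0% of all genes tested. ATR 2 was highest for 7 and ATR 3 for 9. The median log2 deviation of the members from their own means was 0.05 in ATR 1 and -0.03 in each of ATR 2 and ATR 3, where that of all genes tested was within 0.002 of 0 in each. The summed TPM of the family was 1.06 times as high in ATR 1 as in ATR 2 and as in ATR 3. By TPM, 26 of the 38 members and 43.9% of all genes tested were highest in ATR 1. Members share the libraries and are not replicates. Among members with whole counts alone, 11 of 20 were highest in ATR 1, against 33.0% of such genes.

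**Figure D4:**
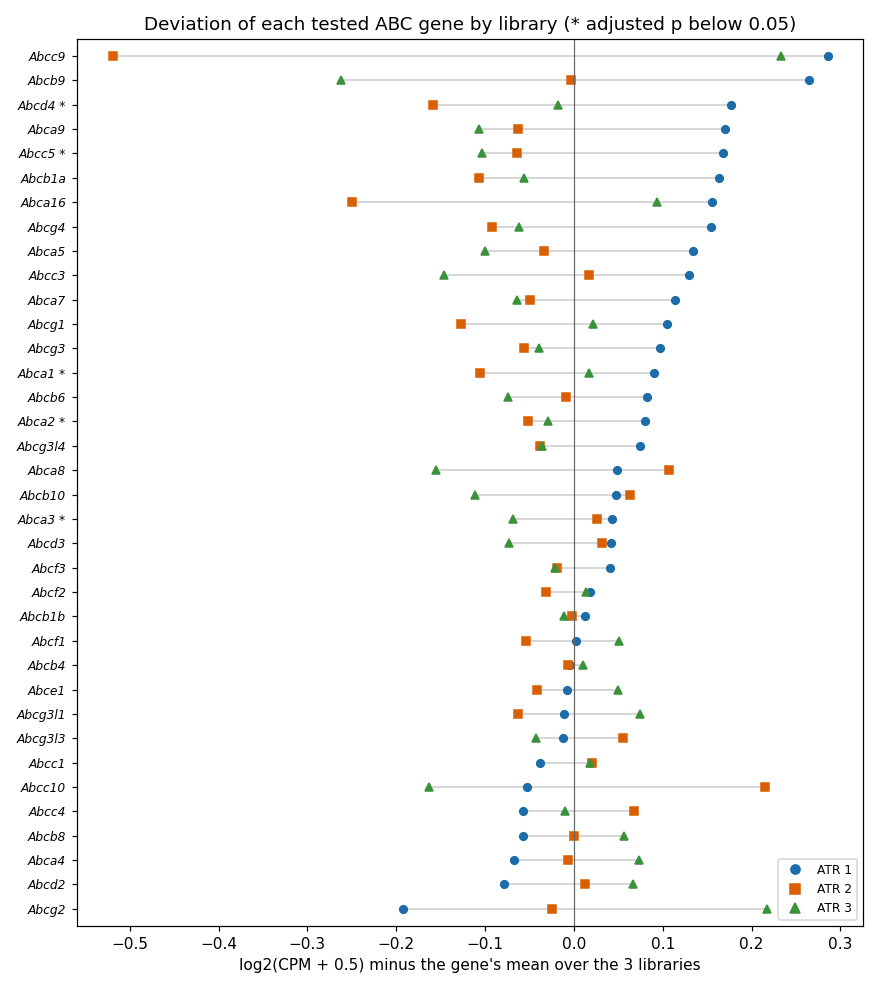
Deviation of log2(CPM + 0.5) from the gene's own mean over the 3 ATR libraries (horizontal) for 36 of the 38 tested ABC family genes, 1 symbol per library; an asterisk marks an adjusted p below 0.05. The ATR 1 symbol is the rightmost for 22 genes, the 5 marked ones included, and the widest gaps belong to genes with few reads such as Abcc9 and Abcb9.

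Not all well expressed members followed this order. Abcc1 was lowest in ATR 1, at -0.04 on the log2 scale, and Abcb1b was highest there by a deviation of only 0.01. Abcg2 was lowest in ATR 1 at -0.19 and highest in ATR 3 at 0.22, from few reads. Abcf1 and Abce1 were highest in ATR 3, while the soluble members Abcf2 and Abcf3 were highest in ATR 1.

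Marker sums of several cell types differed between the libraries, but the genes within most lists did not move together. Granulosa markers summed highest in ATR 1 (3318 TPM), yet 5 of 14 were highest there, Gja1 and Inha among them, while Star and Fst were called and lowest there. The median of their log2 deviations was 0.01 for both ATR 1 and ATR 2 and -0.05 for ATR 3. Smooth muscle and pericyte markers summed to 17708, 16537 and 16367 TPM, nearly all from Tagln and Acta2. Of these 9 genes 5 were highest in ATR 1, and Cnn1, Pdgfrb and Des were called and highest in ATR 2. Surface epithelium markers also summed highest in ATR 1 (2405 TPM), through Upk3b and Lrrn4, but their median log2 deviation was lowest there, at -0.04 against 0.06 in ATR 2. Krt8, Krt18, Krt7 and Wt1 were called and lowest in ATR 1. Fibroblast markers summed to 618, 651 and 643 TPM and were split: Col14a1, Ogn and Dcn were highest in ATR 1, and Thy1, Prrx1 and Pdgfra were lowest there. The sums hide this split: the median log2 deviation of the fibroblast list was -0.10, 0.40 and 0.11. Leukocyte markers summed to 103, 130 and 129 TPM, none of the 10 was highest in ATR 1, and Ptprc stayed under 1 TPM. Red cell markers summed to 603, 465 and 457 TPM over 6 genes, of which only Hba-a1 (457 TPM) and Hba-a2 (51.0 TPM) reached 1 TPM on average, both highest in ATR 1. Endothelial markers summed to at most 4.65 TPM, theca markers to 4.55 and oocyte markers to 2.56 TPM in a library. Their part in the library differences of the ABC genes was not tested.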

How the data were processed

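Messenger RNA of primary rat granulosa cells was sequenced from poly(A)-selected, random-primed libraries as paired reads, per the labels' protocols. The authors deposited, per the file headers, a TPM value and an estimated count of reads for each gene and library. Tools listed in the submitters' processing notes are HISAT2 2.2.1, StringTie 2.1.5 and fastp 0.20.1, with the builds Rnor_6.0 and GRCm38 and no role for either. The way reads were split among similar genes was not stated. Of the 49 ABC genes, 20 have counts that are more than 0.001 from a whole number in some library, as do 24.2% of all genes.

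The estimated counts were rounded. TMM factors came from edgeR 4.0.16 and size factors from DESeq2 1.42.0 (R 4.3.3), and other steps used Python 3.11.15, numpy 2.4.6, pandas 2.3.3, scipy 1.17.1 and Biopython 1.88, with plots by matplotlib 3.10.9. The spread test across all genes was tested on simulated counts. The planned test of ATR against Control was not run, since 3 ATR libraries alone were used. Members and lists were chosen with earlier results of these data known. The rule named all members with a mean of at least 1 TPM, and those below it with 3 reads or more. The 4 members with fewer (Abca14, Abca8a, Abcc2, Abcg8) fall outside it and were named after their values were seen. In the 11 partner lists the 4 highest genes and those called are named. Values of 2 members and 1 partner gene under these rules are not reported here, though they stay in the counts and sums. Of 210 entries in the 20 lists, partner and marker lists together, 195 were found, 4 by gene identifier. Promoters (RefSeq, GRCr8) matched 40 of 49 members, using each gene's first entry. Gene neighbours and overlaps come from the RefSeq gene table of GRCr8, a later build than those named. That gene table also lists Abcb5, Abcc8, Abcc12, Abcg3l2 and Abcg5, which have no value here and are not among the 49. In it 6 members overlap another protein-coding gene, among them Abce1, Abcb1a, Abcc10, Abca13 and Abcg3l3. Alternatives were library totals, other size factors, other read limits, whole counts alone, other TPM limits, CPM, another pseudocount and leaving out each library.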

Additional observations from a re-analysis of the deposited data

How the results depend on the processing

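No paired analysis was possible because a single group, ATR, was analysed. The test of ATR against Control and its alternatives were not run for the same reason. The count of genes with spread beyond counting noise was 3087, and with 1 library left out it ranged from 1526 (without ATR 1) to 2230 (without ATR 3), where fewer libraries enter the test. The count of called ABC members was 5. It was 3 among genes with whole counts alone, where 20 members entered the test, and with 1 library left out it ranged from 2 (without ATR 2) to 4 (without ATR 3). Library totals added Abcd3 to the 5 called, and DESeq2 size factors and read limits of 10 and 100 gave the same 5 genes. The number of members at 1 TPM or more was 35, and other limits gave 26 (5 TPM) to 36 (0.5 TPM). Which library was highest was compared under alternatives chosen after seeing the data: 22 members were highest in ATR 1 with library totals or DESeq2 size factors, 26 by TPM (where 43.9% of all tested genes were), and 11 of 20 with whole counts alone. The SD of log2(CPM + 0.5) of Abcb1b was 0.0120, and 0.0183 with library totals. With reads in place of TPM the ratio of Abcb1b to Abcb1a was 25.6 (32.0 by TPM) and that of Abca1 to Abcg1 55.1 (22.3 by TPM). Depth limits the members with a few reads.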
